A study of Mus musculus with 14 samples.

Results

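Cultured Eµ-Myc lymphoma lines were divided by their level of asparagine synthetase (Asns) mRNA, and the rest of the transcriptome was compared between the 2 classes. Of 14 RNA libraries in the series, 12 came from cultured lines and entered the comparison. Lines were selected on their own Asns level, in CPM, the counts per 1e6 gene counts of a library. The 6 lines with the highest Asns CPM (#309, #115, #136, #517, #549 and #505) formed the Asns-high class, and the 6 with the lowest (#504, #506, #688, #801, #524 and #649) the Asns-low class. Asns itself therefore carries no test between the classes, and the other genes that passed a filter on low counts were tested across the 12 lines. The comparison was repeated without line #649, which leaves 5 lines in the Asns-low class.

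Each line is a culture of malignant B cells from 1 Eµ-MycTg/+ mouse, numbered by that mouse, with 1 library a line. The Eµ-Myc transgene places Myc under the immunoglobulin heavy chain enhancer, which is active in B lineage cells, and the labels give the genotype of the lines as WT, with no further allele. Both classes were kept untreated for 24 h in DMEM-GlutaMAX with 10% fetal bovine serum, 2-mercaptoethanol, HEPES, penicillin-streptomycin and an added 0.37 mM of L-asparagine; the medium was the same for both classes. The remaining 2 libraries are lymphomas grown from line #506 in wild-type C57BL/6 mice, 1 given vehicle and 1 given L-asparaginase (ASNase), and they stayed out of every test. The labels give no second culture of any line. The p-values therefore measure the spread between lines, and a line's own culture to culture variation is not known.

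Asparagine synthetase makes asparagine from aspartate, with glutamine as the nitrogen donor. When an amino acid is short, uncharged tRNA activates the kinase GCN2 (Eif2ak4), which phosphorylates eIF2 and thereby favours translation of the transcription factor ATF4. ATF4 binds the Asns promoter and those of genes for serine, proline and one-carbon metabolism, amino acid transporters and aminoacyl-tRNA synthetases. L-asparaginase removes asparagine from the blood and is used against lymphoid leukaemia, where cells with little asparagine synthetase depend on outside supply.

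Asns was at 269 CPM in line #309, 211 in #115 and 207 in #136, then at 126 in #517, 113 in #549 and 97.7 in #505. In the Asns-low class it was at 60.2 CPM in #504, 57.7 in #506, 48.4 in #688, 37.5 in #801 and 29.2 in #524, and line #649 had 1 Asns count among 32614751, or 0.0307 CPM. The class means were 171 ± 68.1 CPM (SD, n = 6) and 38.8 ± 22.4 CPM (SD, n = 6), or 46.6 ± 13.2 CPM (SD, n = 5) for the Asns-low class without #649. The boundary lay between #505 at 97.7 and #504 at 60.2 CPM, which is no wider a ratio than that between #136 and #517 inside the Asns-high class. A count of 3 corresponds to 0.0920 CPM in the library of #649, so its level was below what 3 counts would give. The vehicle and ASNase lymphomas grown from #506 had 31.0 and 86.3 CPM.

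**Figure D1:**
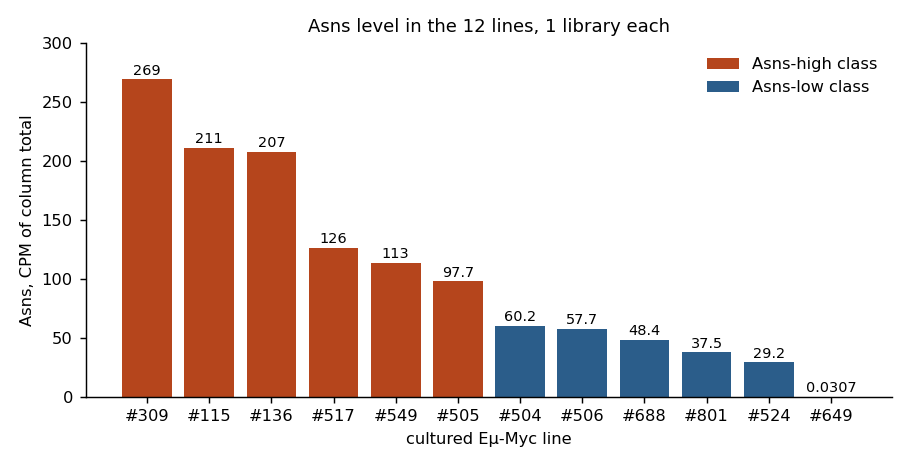
Asns level in CPM of the column total (y axis, from 0) for each of the 12 cultured lines (x axis, ordered by level), with 1 library a line. The 6 Asns-high lines (orange) run from 269 to 97.7 CPM and the 6 Asns-low lines (blue) from 60.2 to 0.0307 CPM.

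Asns lies on the minus strand of chromosome 6, from 7675169 to 7693254 in the deposited table (GRCm38). Its promoter is shown first because it holds the elements through which amino acid shortage is known to act on the gene. The window below (RefSeq, GRCm38.p6, chr6:7693160-7693459, minus strand) runs from 250 bases before the RefSeq start to 50 after it, written 5′ to 3′. That start, and the elements marked, lie inside the gene as the deposited table bounds it. Capitals mark the core TGATGNAA of an ATF4-type element at base 228 and the hexamer GTTACA at base 248.
Asns: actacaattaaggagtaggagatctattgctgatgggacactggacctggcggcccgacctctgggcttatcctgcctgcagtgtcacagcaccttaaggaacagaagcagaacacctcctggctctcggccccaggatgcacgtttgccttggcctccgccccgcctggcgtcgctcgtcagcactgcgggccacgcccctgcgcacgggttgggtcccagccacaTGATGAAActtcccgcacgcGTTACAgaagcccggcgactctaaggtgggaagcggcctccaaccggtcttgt
The core is part of TGATGAAAC, which spans bases 228 to 236 and begins 23 bases before the RefSeq start, and 11 bases separate it from GTTACA. Searched on both strands over 32851 windows of the same length, TGATGNAA was present in 3.97% and GTTACA in 8.25% of windows. The longer TGATGAAAC, which contains the shorter core, was present for 62 of 27025 genes (0.229%).

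The same core was searched in the promoters of the other amino acid response genes, and 4.51% of all genes with a window held it. It was found for 7 of 19 ATF4 and stress regulators (Atf3, Chac1, Herpud1, Jdp2, Nupr1, Trib3 and Vldlr) and for 5 of 13 cytosolic aminoacyl-tRNA synthetases (Aars, Gars, Iars, Tars and Yars). Of 19 amino acid transporters 3 held it (Slc1a4, Slc7a11 and Slc7a7), and of 13 genes of serine synthesis and one-carbon metabolism 0 did. In aspartate, asparagine and glutamine metabolism 2 of 17 genes held it (Asns itself and Got1). In proline, cysteine and alanine synthesis 1 of 7 did (Pycr1), and among the eIF2 kinases and GCN2 pathway 0 of 9. Stretches of 28 bases follow for Asns and for the 5 genes of these lists that hold the core and had an unadjusted p under 0.05 between the classes, chosen after their values were seen. Each reads 5′ to 3′ on the gene's strand, with the core or its reverse complement in capitals.
Asns, chr6:7693215-7693242: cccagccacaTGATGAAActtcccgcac
Chac1, chr2:119351039-119351066: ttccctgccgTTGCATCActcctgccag
Slc1a4, chr11:20332700-20332727: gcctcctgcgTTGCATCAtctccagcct
Gars, chr6:55037961-55037988: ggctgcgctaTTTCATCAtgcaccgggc
Tars, chr15:11399656-11399683: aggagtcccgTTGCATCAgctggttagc
Yars, chr4:129189896-129189923: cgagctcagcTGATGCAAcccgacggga
A match is a description of the letters in the window. Asns and Yars carry the core in the forward direction, and Chac1, Slc1a4, Gars and Tars carry its reverse complement.

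Several lines stand apart or resemble each other, which touches every comparison below. Lines #506, #549 and #688 shared their most abundant immunoglobulin heavy and kappa variable segments, Ighv5-17 and Igkv9-120, and their rank correlations over the 500 most variable genes were 0.77 to 0.87, against -0.14 to 0.65 for the other 63 pairs of lines. Per the labels these 3 come from separate mice; of them #549 is Asns-high and the other two Asns-low. Line #504 (highest rank correlation with any line 0.31) and line #524 (0.24) stood farthest from the rest, and both are Asns-low. The 14 pan-B genes summed to 4733.09 to 6883.5 CPM in Asns-high and 4964.14 to 5905.39 CPM in Asns-low lines. The B lineage factor Pax5 was at 502 to 676 and 441 to 675 CPM. Not every B lineage gene was high in every line. Blk was at 0.0374 to 57.1 CPM in Asns-high and 0.0378 to 134.9 CPM in Asns-low lines. Of other cells' markers, no neutrophil or fibroblast gene was abundant enough to test, the 14 T cell genes summed to 1.67 to 12.5 CPM in Asns-high and 1.53 to 45.0 CPM in Asns-low lines, the 14 macrophage genes to 4.20 to 42.5 and 11.2 to 67.1 CPM, and Cd3e had 0 counts in all lines. The 7 erythroid genes summed to 0.363 to 81.8 CPM in Asns-high and 0.281 to 4.02 CPM in Asns-low lines. The 81.8 CPM were those of #309, nearly all from the beta globin genes Hbb-bs (37.7 CPM) and Hbb-bt (43.6 CPM), near-identical copies, while Hba-a1, Hba-a2 and Alas2 were at 0 in that line. The part of other cells' RNA in the results was not tested.

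Library totals were 24597230 to 31684971 counts in Asns-high and 27575423 to 32614751 in Asns-low lines (exact two-sided permutation test of the means, p = 0.329). The mitochondrial share was 0.862% to 1.55% (mean 1.19 ± 0.292, SD, n = 6) against 1.20% to 2.10% (mean 1.54 ± 0.327, SD, n = 6; exact permutation p = 0.0758, adjusted over 5 library measures 0.363). The smallest p that 6 against 6 allows is 0.00216. Whether the mitochondrial share bears on the results below was not tested.

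No gene passed the test between the classes. Of 12798 genes tested with edgeR's quasi-likelihood test, 0 were called at a Benjamini-Hochberg adjusted p under 0.05 in either direction (percent called 0), and the smallest adjusted p was 0.510. At an unadjusted p under 0.05 there were 1152 genes (9.00%), 525 higher in Asns-high lines (4.10%) and 627 lower (4.90%). Every Asns-high line lay beyond every Asns-low line for 29 genes in the higher direction (0.227%) and 28 in the lower (0.219%). Without #649, 0 of 12939 genes were called (percent called 0), with 904 at an unadjusted p under 0.05 (6.99%), 368 higher (2.84%) and 536 lower (4.14%), and a smallest adjusted p of 0.698. Among the remaining 11 lines the classes did not overlap for 39 genes in the higher direction (0.305%) and 50 in the lower (0.391%). limma voom called 0 genes and left 1037 with an unadjusted p under 0.05. DESeq2 called 49 of the same 12798 genes, 23 higher and 26 lower, and its unadjusted p was under 0.05 for 1336. Scaling by library totals alone moved the split at an unadjusted p under 0.05 to 808 higher and 418 lower, with 0 called. The genes below are accordingly given by their levels, in CPM scaled by edgeR's TMM factors, and by log2 fold changes of Asns-high minus Asns-low lines, all of them uncalled in the edgeR test. Fold changes above 0 made up 47.6% of all genes, with a median of -0.02.

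The gene nearest to Asns in function that also separated line #649 was Asrgl1, which encodes an asparaginase-like enzyme that cleaves asparagine and isoaspartyl peptides. It was at 48.3, 74.1 and 154 CPM (lowest, median, highest) in Asns-high lines and at 0.0312, 47.9 and 70.8 CPM in Asns-low lines. The lowest value, 0.0312 CPM, was that of #649, the line with 1 Asns count, and the other 11 lines were at 22.9 CPM or more. The log2 fold change was 1.13 ± 0.821 (SE; unadjusted edgeR p = 0.195) over 12 lines and 0.87 (p = 0.0334, adjusted p = 0.705) without #649. When log2 Asns was used as a continuous measure over the 12 lines, Asrgl1 had the smallest p of all genes (adjusted p = 0.131), and line #649 holds the extreme Asns value of that fit. In that 12-line fit 15 of the 20 smallest p belonged to chromosome 1, which holds 6.25% of the genes tested and on which line #649 was offset by a median of 0.47 on the log2 scale. Aspg, the other asparaginase gene, was at 0 to 0.0319 CPM.

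The other enzymes of aspartate, asparagine and glutamine metabolism overlapped between the classes. Of 19 genes of this list tested, 0 were called, 0 had an unadjusted p under 0.05 in the higher direction and 1 in the lower, and 13 fold changes were above 0 (median 0.16). Got2, the mitochondrial aspartate aminotransferase that supplies aspartate, was at 316, 385 and 476 CPM against 207, 343 and 375 CPM, with overlapping classes. Adss, which uses aspartate to make adenylosuccinate, was the gene in the lower direction, at 146, 163 and 189 CPM in Asns-high and 158, 205 and 274 CPM in Asns-low lines (log2 fold change -0.32 ± 0.122, SE, p = 0.0207). Adss lies on chromosome 1, and its highest value was that of #649. The tRNA synthetase for asparagine, Nars, ranged over 272 to 379 CPM in Asns-high and 179 to 406 CPM in Asns-low lines.

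ATF4 and the stress regulators it controls overlapped between the classes. Atf4 itself was at 281, 334 and 537 CPM in Asns-high and 252, 309 and 365 CPM in Asns-low lines (log2 fold change 0.23 ± 0.160, SE, p = 0.180). The 537 CPM belonged to line #309, the line with the most Asns, and the other 5 Asns-high lines, at 281 to 338 CPM, lay within the range of the Asns-low lines. Without #309 the log2 fold change of Atf4 was 0.07. In the list, 2 of 16 genes tested had an unadjusted p under 0.05 in the higher direction, against 4.10% of all genes. In the lower direction 0 did. Fold changes were above 0 for 10 genes (median 0.14), but the median was -0.01 without #309.

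Chac1, which degrades glutathione and is an ATF4 target, was at 0.860, 1.63 and 6.62 CPM in Asns-high and 0.270, 0.521 and 2.00 CPM in Asns-low lines (log2 fold change 1.65 ± 0.642, SE, p = 0.0241, adjusted p = 0.536). Its levels were low in all lines, and 3 of 6 Asns-high lines lay above every Asns-low line. Without #309 its log2 fold change was 1.03. Eif4ebp1, an inhibitor of cap-dependent translation, was at 56.3, 71.0 and 111 CPM against 30.0, 51.4 and 75.6 CPM (log2 fold change 0.57 ± 0.237, SE, p = 0.0320). Trib3, a pseudokinase that restrains ATF4, was at 1.70, 3.77 and 11.1 CPM against 0.331, 1.32 and 7.42 CPM, with the highest value of each class in #309 and #504. Ddit3 (CHOP) and Atf3, which rise in prolonged stress, had log2 fold changes of -0.30 ± 0.439 and -1.15 ± 0.830 (SE), with their highest levels, 11.8 and 12.2 CPM, in the Asns-low line #524. Averaged over the list, line #309 stood 0.83 above the 12-line mean on the log2 scale, and the other 5 Asns-high lines stood at -0.24 to 0.05, inside the range of the Asns-low lines (-0.53 to 0.29). Among 11 genes of the eIF2 kinases and the GCN2 pathway, 1 had an unadjusted p under 0.05, against 9.00% of all genes. That gene was Eif2b5, a subunit of the exchange factor for eIF2, at 176, 192 and 243 CPM against 135, 168 and 176 CPM (log2 fold change 0.32 ± 0.105, SE, p = 0.00945). Eif2ak4 (GCN2) had a log2 fold change of 0.01.

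**Figure D2:**
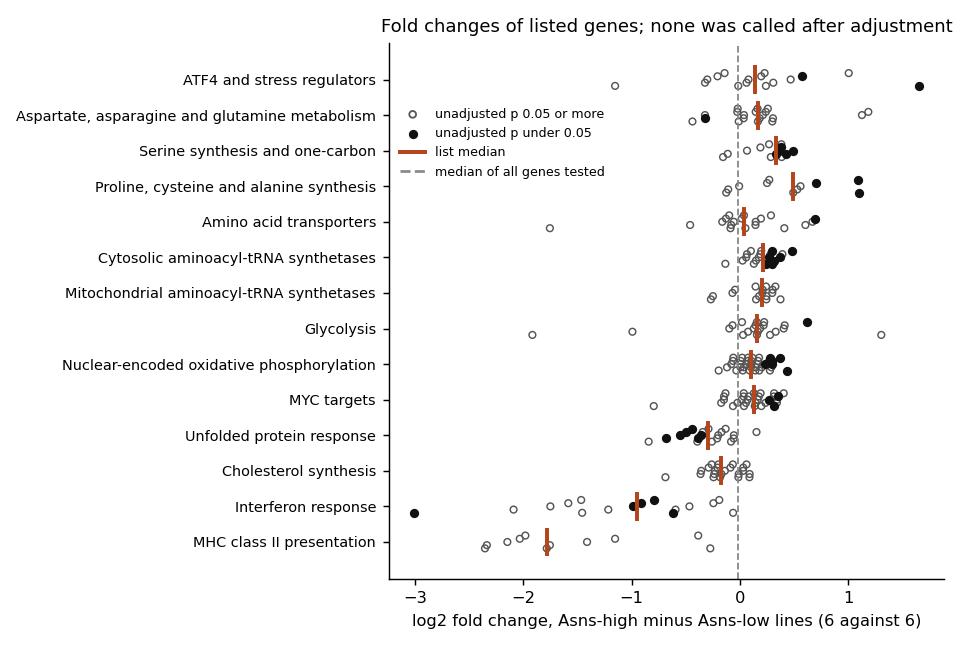
Log2 fold changes of Asns-high minus Asns-low lines (x axis) for the tested genes of 14 lists (y axis), 6 lines a class. Each point is 1 gene (filled, unadjusted p under 0.05), orange bars are list medians and the dashed line is the median of all genes (-0.02); medians run from 0.49 for proline, cysteine and alanine synthesis to -1.78 for MHC class II presentation, and no gene was called.

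Fold changes of serine synthesis and one-carbon genes were mostly above 0, with 0 called. Of 13 tested, 5 had an unadjusted p under 0.05, all in the higher direction against 4.10% of all genes, and 11 fold changes were above 0. The median was 0.34, and 0.31 without #649. Mthfd1, the cytosolic folate enzyme with 3 activities, was at 307, 336 and 440 CPM in Asns-high and 252, 270 and 324 CPM in Asns-low lines (log2 fold change 0.34 ± 0.101, SE, p = 0.00567, adjusted p = 0.510). Shmt2, which moves a carbon unit from serine to folate in mitochondria, was at 513, 630 and 750 CPM against 351, 479 and 562 CPM (log2 fold change 0.42 ± 0.138, SE, p = 0.00948). For Shmt2, 5 of 6 Asns-high lines lay above every Asns-low line, the exception being #517, and for Mthfd1 4 of 6 did. Shmt1, its cytosolic counterpart, was at 220, 256 and 327 CPM against 159, 204 and 242 CPM (0.36 ± 0.121, SE, p = 0.0109), and Mthfd1l at 185, 220 and 303 CPM against 149, 182 and 205 CPM (0.38 ± 0.132, SE, p = 0.0137).

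Mthfd2, the mitochondrial folate enzyme and an ATF4 target, was at 168, 192 and 352 CPM in Asns-high and 128, 150 and 185 CPM in Asns-low lines (log2 fold change 0.49 ± 0.181, SE, p = 0.0195). Its highest level, 352 CPM, was in #309, where the 386 genes of chromosome 6 used, the chromosome of Mthfd2 and Asns, were offset by a median of 0.50 on the log2 scale, and without #309 the log2 fold change of Mthfd2 was 0.29. The first enzymes of serine synthesis overlapped between the classes. Phgdh was at 568, 696 and 822 CPM against 455, 553 and 738 CPM (0.28 ± 0.147, SE, p = 0.0762), and Psat1 at 241, 581 and 717 CPM against 206, 309 and 615 CPM (0.38 ± 0.342, SE, p = 0.282). Psat1 lies on chromosome 19, whose median offset was -0.76 in #517, 0.23 in #136 and 0.29 to 0.36 in #115, #549, #506 and #688. The lowest Asns-high level of Psat1, 241 CPM, was in #517, and the highest, 717 CPM, in #136.

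Proline, cysteine and alanine synthesis had the highest median of the lists with more than 3 genes tested. It was 0.49, or 0.42 without #649 and 0.29 without #309. Of 11 genes tested, 3 had an unadjusted p under 0.05, all in the higher direction against 4.10% of all genes. Fold changes were above 0 for 8 of them. Bcat1, the cytosolic branched-chain aminotransferase, was at 179, 255 and 417 CPM against 60.0, 178 and 202 CPM (log2 fold change 0.70 ± 0.285, SE, p = 0.0302). Gpt2, which makes alanine in mitochondria, was at 4.90, 22.2 and 38.7 CPM against 4.09, 9.09 and 20.8 CPM (1.09 ± 0.467, SE, p = 0.0369). Cth, which makes cysteine from cystathionine, was at 7.20, 38.8 and 55.4 CPM against 4.54, 19.1 and 27.8 CPM (1.09 ± 0.474, SE, p = 0.0402). For Cth, 5 of 6 Asns-high lines lay above every Asns-low line, and #505, the Asns-high line with the least Asns, was at 7.20 CPM. Aldh18a1 and Pycr1, which make proline from glutamate, had log2 fold changes of 0.53 ± 0.328 and 0.27 ± 0.232 (SE) with overlapping levels.

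Amino acid transporters had a median near 0 (0.04), with 1 of 19 genes tested at an unadjusted p under 0.05 (9.00% of all genes). That gene was Slc1a4 (ASCT1), a carrier of neutral amino acids, at 27.0, 50.8 and 69.0 CPM in Asns-high and 18.0, 27.2 and 44.0 CPM in Asns-low lines (log2 fold change 0.70 ± 0.274, SE, p = 0.0253, adjusted p = 0.536). Slc1a5 (ASCT2), a carrier for glutamine and asparagine, was at 364 to 486 CPM against 274 to 469 CPM. Slc38a2 (SNAT2), which takes up small neutral amino acids, was at 350 to 528 CPM against 354 to 508 CPM. Slc7a11, the cystine carrier, was at 0 to 0.0330 CPM.

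Fold changes of the cytosolic aminoacyl-tRNA synthetases were small and nearly all above 0, with 0 called. The list means overlapped between the classes, with the Asns-low line #506 (0.10 above the 12-line mean on the log2 scale) above 4 of the 6 Asns-high lines. Of 20 genes tested, 7 had an unadjusted p under 0.05, all in the higher direction against 4.10% of all genes. Fold changes were above 0 for 19 of 20 (median 0.22, and 0.17 without #649). Sars, for serine, was at 227, 299 and 352 CPM in Asns-high and 156, 220 and 255 CPM in Asns-low lines (log2 fold change 0.48 ± 0.153, SE, p = 0.00836, adjusted p = 0.510). Yars, for tyrosine, was at 132, 164 and 184 CPM against 101, 135 and 155 CPM (0.32 ± 0.126, SE, p = 0.0273). For both, 5 of 6 Asns-high lines lay above every Asns-low line, and the exceptions were #309 for Sars and #505 for Yars. Gars, for glycine, was at 362, 409 and 674 CPM against 297, 342 and 392 CPM (0.37 ± 0.150, SE, p = 0.0280), and lies on chromosome 6; without #309, which held the 674 CPM, its log2 fold change was 0.22. Tars, Rars, Kars and Wars, for threonine, arginine, lysine and tryptophan, had log2 fold changes of 0.24 to 0.30 with unadjusted p of 0.0393 to 0.0463. Dars, for aspartate, was the exception to the direction, at -0.13 ± 0.106 (SE). Among 16 mitochondrial synthetases 0 had an unadjusted p under 0.05 and 12 fold changes were above 0 (median 0.21).

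**Figure D3:**
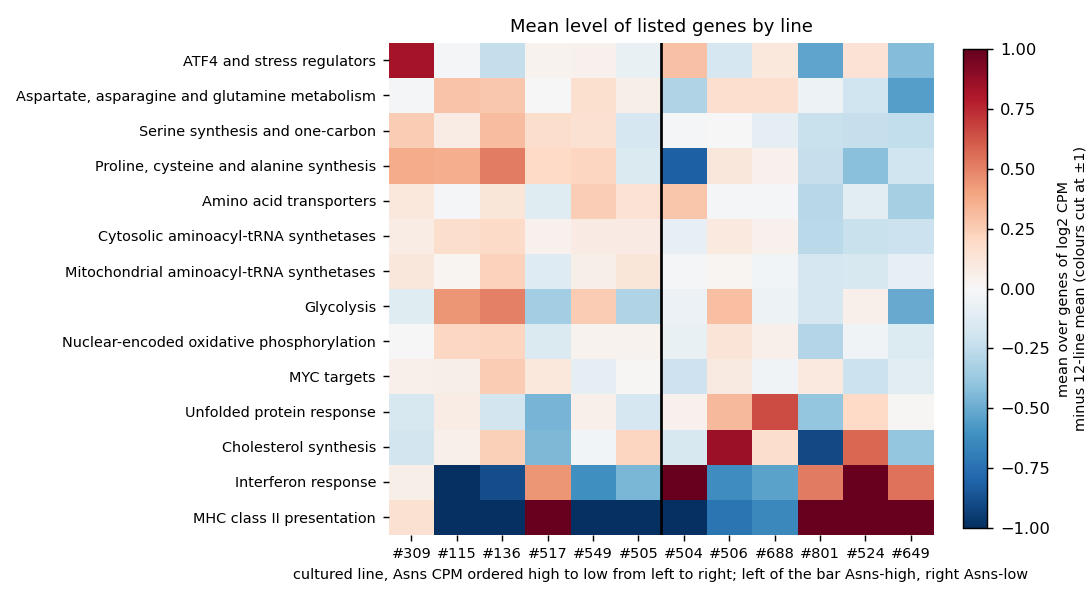
Mean level of each list (y axis) in each line (x axis, Asns ordered high to low, the black bar between the classes), as log2 CPM minus the 12-line mean averaged over the list's tested genes, with colours cut at ±1. The ATF4 list is darkest in #309 (0.83), the tRNA synthetases range from 0.05 to 0.19 in the 6 Asns-high lines and from -0.27 to 0.10 in the Asns-low lines, and the interferon and MHC class II lists vary most, with #524 highest at 1.60 and 5.08.

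Growth-related lists had medians a little above that of all genes. For nuclear-encoded oxidative phosphorylation 30 of 36 fold changes were above 0 (median 0.10). In this list 6 genes had an unadjusted p under 0.05, all in the higher direction against 4.10% of all genes. Ndufa9, a complex I subunit, was the gene of this list whose classes did not overlap, at 121, 142 and 184 CPM against 98.3, 112 and 118 CPM (log2 fold change 0.44 ± 0.117, SE, p = 0.00280), and it lies on chromosome 6. For glycolysis the median was 0.16 over 21 genes, and 0.10 without #649. Its gene with an unadjusted p under 0.05 was Tpi1, triosephosphate isomerase, at 410, 598 and 842 CPM against 258, 436 and 522 CPM (0.62 ± 0.219, SE, p = 0.0149), also on chromosome 6. Among 30 MYC targets 23 fold changes were above 0 (median 0.13). Of the 30, 3 had an unadjusted p under 0.05 (Phb, Prmt5 and Bop1), where 9.00% of all genes did. Myc itself was at 1019, 2112 and 2722 CPM in Asns-high and 469, 1671 and 1900 CPM in Asns-low lines (0.41 ± 0.344, SE, p = 0.257), with the lowest level in #504. The proliferation list was level (median 0.02, 0 of 25 at an unadjusted p under 0.05). Among 26 genes of amino acid sensing by mTORC1, 2 had an unadjusted p under 0.05 (median 0.07), against 9.00% of all genes.

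Fold changes of the unfolded protein response were mostly below 0, with 0 called. Of 19 tested, 6 had an unadjusted p under 0.05, all in the lower direction against 4.90% of all genes, and 18 fold changes were below 0 (median -0.29, and -0.27 without #649). Dnajc3 (p58IPK), a chaperone that also restrains the eIF2 kinases, was at 41.9, 59.7 and 65.1 CPM in Asns-high and 58.9, 89.1 and 107 CPM in Asns-low lines (log2 fold change -0.68 ± 0.167, SE, p = 0.00145, adjusted p = 0.510). For Dnajc3, 5 of 6 Asns-low lines lay above every Asns-high line, the exception being #801. Dnajb11, its relative in the endoplasmic reticulum, was at 109, 118 and 133 CPM against 126, 147 and 200 CPM (-0.36 ± 0.109, SE, p = 0.00609). Hspa5 (BiP), the main chaperone there, was at 368, 427 and 583 CPM against 407, 616 and 874 CPM (-0.50 ± 0.189, SE, p = 0.0207), and Calr at 406, 482 and 578 CPM against 437, 672 and 871 CPM (-0.39 ± 0.168, SE, p = 0.0395). Ern1 (IRE1), a sensor of unfolded protein, was at 10.2, 12.1 and 20.6 CPM against 14.6, 21.1 and 26.6 CPM (-0.56 ± 0.217, SE, p = 0.0246). The list was highest in #688 (0.66 above the 12-line mean on the log2 scale), and its median was -0.17 without the related lines #506, #549 and #688. Of 5 plasma cell genes tested, which share Xbp1 with this response, all 5 fold changes were below 0 (median -0.74), and their part in the result was not tested.

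Interferon response genes had fold changes below 0 for 16 of 16 tested (median -0.95). Of these, 5 had an unadjusted p under 0.05, against 4.90% of all genes in the lower direction. Irf1, a transcription factor of this response, was at 8.49, 12.8 and 19.9 CPM in Asns-high and 16.9, 19.5 and 32.5 CPM in Asns-low lines (log2 fold change -0.61 ± 0.242, SE, p = 0.0261). Psmb9, an immunoproteasome subunit, was at 8.92, 16.8 and 35.9 CPM against 16.5, 36.0 and 65.5 CPM (-0.99 ± 0.409, SE, p = 0.0327). B2m, the light chain of MHC class I and not one of the listed genes, was at 166, 212 and 307 CPM against 274, 417 and 807 CPM (-1.03 ± 0.247, SE, p = 0.00126, adjusted p = 0.510), with 5 of 6 Asns-low lines above every Asns-high line. The highest means of the interferon list were in #524 and #504, at 1.60 and 1.08 above the 12-line mean on the log2 scale, and without these 2 lines the median was -0.34. The MHC class II list had 11 of 11 fold changes below 0 (median -1.78) and 0 at an unadjusted p under 0.05. Cd74, the invariant chain, was at 7.93, 29.9 and 1207 CPM against 12.1, 231 and 4474 CPM, the highest values being those of #517 and #524. The median of this list was 0.08 without #524 and -4.87 without #517, so its direction rested on single lines. Vpreb1 and Igll1, the surrogate light chain of progenitor B cells, had log2 fold changes of -4.56 ± 1.70 and -3.85 ± 1.74 (SE), with 293 and 418 CPM in #504 alone and at most 60.8 CPM elsewhere.

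The genes with the smallest p in the higher direction were small in effect where the levels were substantial. Hgh1, an assembly factor for translation elongation factor 2, was at 47.3, 51.1 and 62.3 CPM in Asns-high and 29.6, 32.6 and 43.4 CPM in Asns-low lines (log2 fold change 0.64 ± 0.124, SE, p = 0.000226, adjusted p = 0.510). Mtfp1, a mitochondrial fission protein, was at 12.9, 15.5 and 17.3 CPM against 8.86, 10.4 and 11.5 CPM (0.56 ± 0.134, SE, p = 0.00120). The classes did not overlap for these 2 genes, nor for Mrpl42 (mitochondrial ribosome, 0.48 ± 0.116, SE), Acad8 (valine breakdown, 0.72 ± 0.195, SE) and Rpusd4 (mitochondrial RNA pseudouridylation, 0.60 ± 0.146, SE). The naming rule takes the 5 widest gaps in this direction, which are these genes, so their lack of overlap follows from the choice. Of all genes tested, 0.227% did not overlap in this direction. Wdr92, Gid4, Dync2h1 and Pi4k2b had log2 fold changes of 0.60 to 0.73, with 5 of 6 Asns-high lines above every Asns-low line. Leaving out #649 left the log2 fold changes of Hgh1 and Mtfp1 at 0.67 and 0.54.

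Arhgdig, Ina, Usp2 and Bahcc1 had larger fold changes at low and uneven levels, and were not called. Arhgdig, a GDP dissociation inhibitor, was at 3.39, 13.6 and 51.9 CPM in Asns-high and 1.69, 2.31 and 4.45 CPM in Asns-low lines (log2 fold change 2.83 ± 0.573, SE, p = 0.000322). Usp2, a deubiquitinase, was at 2.95, 12.1 and 25.3 CPM against 0.373, 1.89 and 3.10 CPM (2.83 ± 0.671, SE, p = 0.00116). Ina, a neuronal intermediate filament, ran from 0.807 to 45.0 CPM against 0.0339 to 1.56 CPM, and Bahcc1, a chromatin reader, from 0.0807 to 69.0 CPM against 0 to 0.967 CPM. In each of these 4 genes line #309 was the lowest of the Asns-high class and lay within the range of the Asns-low lines, although it held the most Asns.

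**Figure D4:**
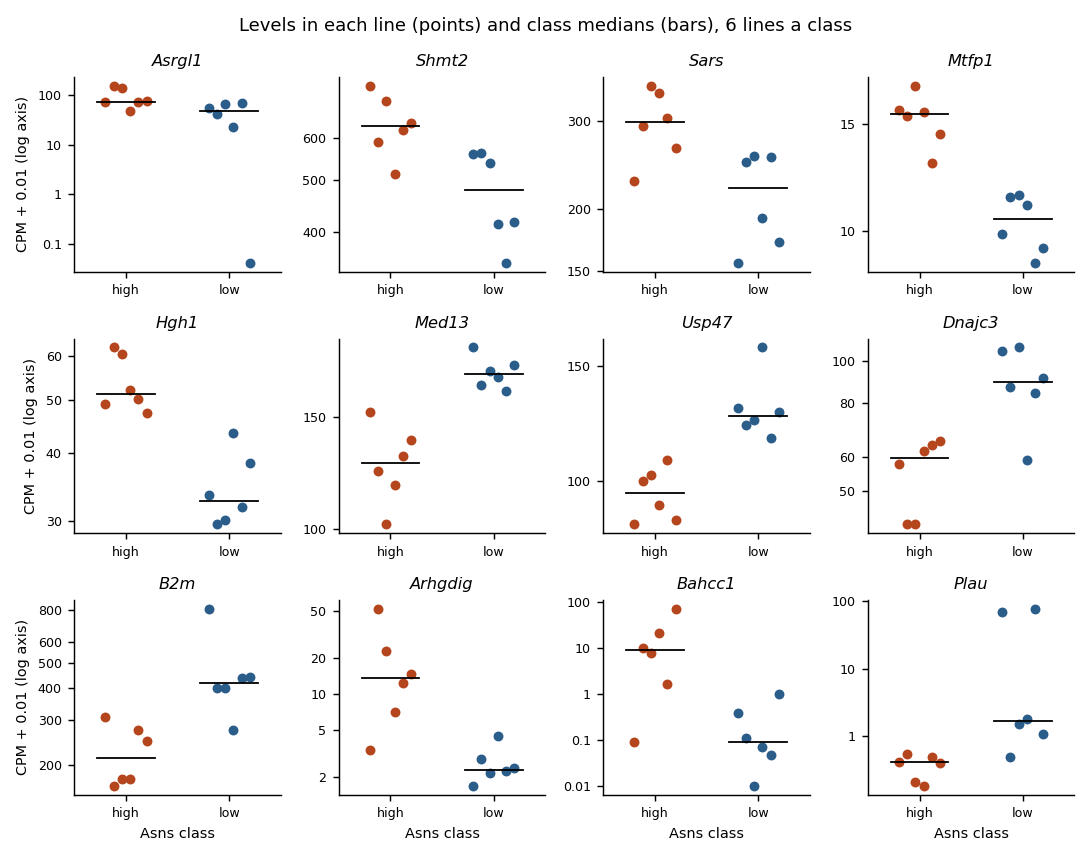
Levels of 12 genes in each line (points, CPM + 0.01 on a log axis) by Asns class (x axis), with class medians as bars, 6 lines a class; within a class lines stand in order of Asns from left to right. Mtfp1, Hgh1, Med13 and Usp47 do not overlap between the classes, the lowest Asrgl1 point (0.0312 CPM) is #649, and the 2 high Plau points are #504 and #524.

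In the lower direction Med13, a subunit of the Mediator kinase module, was at 102, 127 and 152 CPM in Asns-high and 165, 175 and 193 CPM in Asns-low lines (log2 fold change -0.47 ± 0.0965, SE, p = 0.000350, adjusted p = 0.510). Usp47, a deubiquitinase, was at 85.9, 96.0 and 108 CPM against 116, 126 and 160 CPM (-0.44 ± 0.0960, SE, p = 0.000613), and Eea1, an early endosome tether, at 36.3, 43.7 and 52.5 CPM against 54.2, 60.1 and 68.4 CPM (-0.47 ± 0.105, SE, p = 0.000737). These 3 did not overlap between the classes, and neither did Zswim8 (-0.95 ± 0.268, SE), Sclt1 (-0.49 ± 0.129, SE) and Foxj3 (-0.22 ± 0.0724, SE). All of them but Eea1 are the widest gaps that the naming rule takes, so their lack of overlap follows from the choice. Of all genes tested, 0.219% did not overlap in this direction. Far1, Wdr26, Hdac6 and Azin1 had log2 fold changes of -0.53 to -0.68, each with 5 of 6 Asns-low lines above every Asns-high line. Ptger4, a prostaglandin E2 receptor, was at 2.54, 9.24 and 29.5 CPM against 22.3, 43.1 and 59.7 CPM (-1.91 ± 0.461, SE, p = 0.00134), and Rasd1, a Ras-related GTPase, at 0.300, 1.64 and 2.94 CPM against 1.28, 16.0 and 28.8 CPM (-3.19 ± 0.752, SE, p = 0.00109). Plau, the urokinase gene, was at 70.6 CPM in #504 and 77.5 CPM in #524 and at 0.176 to 1.80 CPM in the other 10 lines, and its log2 fold change moved from -6.10 to -1.72 without those 2 lines.

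DESeq2, on the same counts and filter, gave 23 higher and 26 lower genes at an adjusted p under 0.05, with 183 adjusted p left undefined. The classes did not overlap for 15 of these 49, against 0.445% of all genes tested. The edgeR unadjusted p of the 49 ran from 0.000178 to 0.00701. Because the 49 were picked by the same contrast of the same counts, neither value is separate evidence for them. Its smallest adjusted p, 2.02e-05, belonged to Plau. Mtfp1 (0.00101), Med13 (0.00171) and Hgh1 (0.00190) were among the genes called by DESeq2 whose classes did not overlap.

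Lines #506, #549 and #688 allow the classes to be set side by side within lines that resemble each other, though not in full. Line #549 also held Ighv13-2 (80.1 CPM) and Igkv5-39 (398 CPM), which were not among the 3 leading segments of #506 or #688. Ighv13-2 was the leading heavy segment of the Asns-high line #115. The rank correlation with #115 was 0.60 for #549, 0.47 for #506 and 0.44 for #688. What these further segments mean for the match was not tested. Asns in #549 was 1.97 times that in #506 (95% interval 1.86 to 2.09, counting error only) and 2.34 times that in #688 (2.19 to 2.50). Of 9534 genes with at least 5 CPM in any of the 3, #549 was at least 2-fold above both of the others for 83 and at least 2-fold below both for 42, while #688 was above both for 34 and below both for 80. When the test was run on the other 9 lines, #549 lay above both #506 and #688 for 4 of the 12 genes with the smallest p in the higher direction and below both for 2, where 37.6% and 36.3% of all genes higher in the 9 lines did so. Of the 12 in the lower direction #549 lay below both for 6 and above both for 0, where 54.8% and 23.4% did. The same-direction counts of the leading genes were thus close to the share of all genes in that direction. The 9-line test called 0 genes, with 1121 at an unadjusted p under 0.05.

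The genes around Asns overlapped between the classes. Within 1 Mb on either side the table lists 39 genes, of which 11 were tested, 0 were called and 1 had an unadjusted p under 0.05 (median log2 fold change -0.00). That gene was Sdhaf3, an assembly factor of succinate dehydrogenase, at 5.73, 8.05 and 11.3 CPM against 4.37, 5.95 and 7.36 CPM (0.52 ± 0.219, SE, p = 0.0354). C1galt1, a glycosyltransferase, was at 93.7, 136 and 204 CPM against 64.1, 184 and 225 CPM, and Mios, a part of the GATOR2 complex that signals amino acids to mTORC1, at 60.8, 71.4 and 90.2 CPM against 51.7, 82.4 and 84.4 CPM. In line #649, with its 1 Asns count, C1galt1, Mios and Rpa3 were at 188, 84.4 and 52.1 CPM, within the range of the other lines. Other neighbours were at an extreme of the 12 lines in #649. Sdhaf3 was lowest there (4.37 CPM), and Umad1 (42.7 CPM) and Glcci1 (11.7 CPM) were highest. Rpa3, Umad1 and Glcci1 overlap or adjoin in the annotation, so their counts are uncertain.

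Whole chromosomes were offset in 10 of the 12 lines, which touches the genes above that lie on them. Each of 8567 genes with a mean log2 CPM above 3 was set against its own median over the 12 lines. A line's median distance was at least 0.25 for 13 pairs of chromosome and line. In Asns-high lines these were chromosomes 6 (0.50), 12 (0.49) and 3 (-0.38) in #309, 9 in #136 (0.32), and 19 in #115 (0.29), #549 (0.30) and #517 (-0.76). In Asns-low lines they were 18 (0.54) and 3 (-0.46) in #504, 13 in #801 (-0.85), 1 in #649 (0.47), and 19 in #506 (0.36) and #688 (0.30). The largest distance short of 0.25 was that of chromosome 19 in the Asns-high line #136 (0.23). Of the genes described, Mthfd2, Bcat1, Gars, Tpi1, Ndufa9 and Sdhaf3 lie on chromosome 6 with Asns, Mthfd1 and Wars on 12, and Sars, Phgdh, Cth and Sclt1 on 3. Asrgl1, Psat1, Aldh18a1 and Ina lie on chromosome 19, Acad8, Rpusd4, Dync2h1 and Usp2 on 9, Adss, Dars, Atf3 and Wdr26 on 1, and Nars and Cd74 on 18. How far the offsets enter the fold changes of these genes was not tested beyond leaving out lines. Chromosome 6 differed by 0.11 between the class means, with #309 the only line above 0.25. Ddx3y, a Y-linked gene, was at 28.2 CPM or more in 4 Asns-high and 2 Asns-low lines and at most 0.673 CPM in the others, and the labels do not give the sex of the mice.

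**Figure D5:**
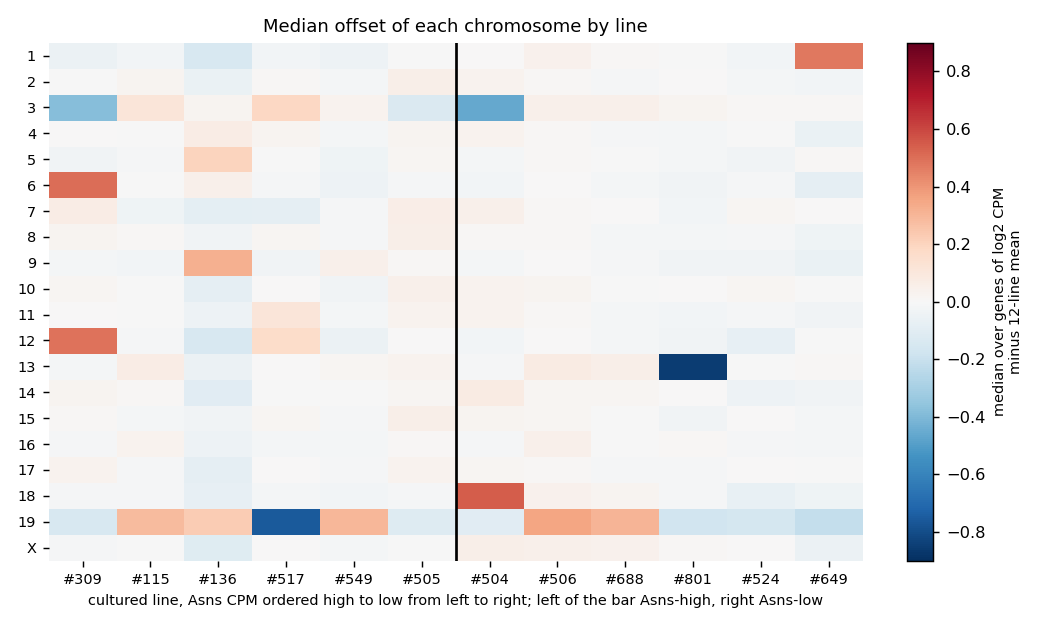
Median over genes of log2 CPM minus the gene's 12-line median, for each chromosome (y axis) in each line (x axis). Lines are ordered by Asns from high to low, with the black bar between the classes. The label of the colour bar says mean. Chromosome 6, which holds Asns, is high in #309 only (0.50), chromosome 13 is low in #801 (-0.85), and chromosome 19 takes both signs within the Asns-high class.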

How the data were processed

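Gene counts of the 12 cultured lines were used as the authors deposited them, 1 whole-number count per gene entry, in a table of 46959 gene entries and 100 spike-in and phage entries; the latter were left out of totals and tests. Per the submitters' processing notes, STAR 2.4.0 and featureCounts from Subread 1.5.0-p3 were used with mm10/GRCm38; whether strand was used, and how multi-matching reads were counted, is not given in the sources used here. Counts of overlapping, antisense or near-identical genes (Gapdh, Eno1) are therefore uncertain. Per the labels, the libraries came from total RNA with a stranded mRNA kit and were read as 2 × 75 bases on a NextSeq.

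Each line's total was 24597230 to 32614751 counts, and 3 counts correspond to 0.0920 to 0.122 CPM; intervals and floors cover counting error only. The classes follow from Asns CPM on the library totals. Genes were kept by filterByExpr, scaled by TMM and tested across the 12 lines with the quasi-likelihood test of edgeR 4.0.16 (R 4.3.3, residual degrees of freedom 10), with Benjamini-Hochberg adjustment over all genes tested other than Asns. The script was tested on simulated data, where a limit on false calls was set for edgeR and voom but not for DESeq2. Log2 CPM used a prior count of 2. DESeq2 1.42.0, limma 3.58.1 (voom), total-count scaling, other filters, log2 Asns as a continuous measure (its slopes scaled to the difference between the class means), the 4 highest against the 4 lowest lines, and each line left out in turn were alternatives; leaving out #506, #549 and #688, or #504 and #524, was added after seeing the data. Library measures were compared by exact permutation with scipy 1.17.1.

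Named genes were a fixed set of stress, amino acid and growth genes, the 12 smallest unadjusted p in each direction with a mean of 10 CPM or more in the higher class (used because no gene was called), the 3 smallest p in each of 32 lists, genes within 1 Mb of Asns with a mean of 1 CPM or more, and the 5 widest gaps in each direction between classes that did not overlap. Others with values here, such as Asrgl1 and the remaining members of the amino acid, tRNA synthetase and chaperone lists, were chosen after their values were seen. The line classes and the gene lists were chosen with earlier results of these data known. Promoter sequences are from RefSeq (GRCm38.p6). The 2 lymphomas entered no test. Some genes that the naming rule selects are not reported here.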

Additional observations from a re-analysis of the deposited data

Results flagged for a closer look

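In 104 groups of 6 lines, 1 line stood apart from the others of its class in 12, by the ratio of its gap to the range of the class (Dixon's 95% criterion), where chance gives about 1 in 20 groups. Line #309 was the highest Asns-high line for Atf4, at 9.07 (next 8.4), and for Mthfd2, at 8.46 (next 7.659), both in log2 CPM. Cth was lowest in #505, at 2.862 (next 5.025), and Rpusd4 highest in #136, at 6.154 (next 5.587).

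Trp53, which encodes p53, was apart in both classes, at 6.08 in #517 (next 7.849) and at -2.813 in #524 (next 7.588). Because its annotation overlaps that of Wrap53 and the strand setting is not given, low values of Trp53 may still include reads of that gene. In the Asns-low class Myc was lowest in #504, at 8.874 (next 10.37), Usp47 highest in #801, at 7.325 (next 7.016), Acad8 lowest in #649, at 2.916 (next 3.502), and Zswim8 highest in #649, at 6.219 (next 5.808). The library measures that stood apart were the TMM factor of #517, at 1.078 (next 1.018), and the share of counts in the 20 most abundant genes in #504, at 6.383% (next 7.826%). Phage spike-in entries, outside the gene counts, held 5 to 534 counts in the lines. Explanations were not tested.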

How the results depend on the processing

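No gene was called under any alternative run except DESeq2 (23 higher, 26 lower) and the 4 highest against the 4 lowest lines (0 higher, 1 lower, Tmeff1, adjusted p = 0.00970, not called over 12 lines); leaving out each line in turn gave 0 called genes in each direction, with 773 (without #136) to 1298 (without #504) at an unadjusted p under 0.05. Unfiltered, edgeR called 0 of 24254 genes, with 2143 at an unadjusted p under 0.05. Of 139 named genes tested, 115 reversed in no alternative that gave them a value and 24 reversed somewhere; the filter of 1 CPM in at least 6 lines gave no value for 8 of them and for the erythroid list; the cause was not tested. With log2 Asns as a continuous measure the log2 values were Ddit3 0.0408, Atf5 0.10, Atf3 0.41, Hk1 0.54, Srebf2 0.0108, Blnk 0.0407, Vpreb1 0.0877, Igll1 0.36, Xbp1 0.0739, Xist 2.53, Kdm5d -0.0359, Ddx3y -0.14 and Umad1 -0.17, and the list medians were 0.16 for serine and one-carbon, 0.18 for proline, cysteine and alanine, 0.0577 for mitochondrial tRNA synthetases, 0.0739 for plasma cell genes and -0.01 for the unfolded protein response. Continuous without #649, Cdkn2a was -0.35, C1galt1 0.0359, Mios 0.0831 and the eIF2 list 0.11. Without #649 in the class test, Cdkn2a was -0.0268 and Mios 0.0407. With limma voom, Atf5 was 0.0864 and Mios 0.0102, and with total-count scaling they were 0.0281 and 0.0396. In 4 against 4 lines, Atf5 was 0.25, Umad1 -0.0202, the eIF2 list 0.0803 and the cytosolic tRNA synthetases 0.33. Without #504 and #524, Ddit3 was 0.25, Atf5 0.46, Atf3 0.99, H2-Ab1 0.32, H2-Aa 0.0061, Cxcr5 0.26, Cd68 0.0405, Egr2 1.27, Umad1 -0.23 and the eIF2 list 0.10. Without #506, #549 and #688, Cdkn2a was -0.10, Mios 0.0936 and the eIF2 list 0.14. Leaving out each line in turn, ranges that crossed 0 were Ddit3 -0.58 to 0.13, Atf5 -0.11 to 0.31 and Sesn2 -0.25 to 0.40. Trp53 (-0.12 to 0.33), Cdkn2a (-0.39 to 0.99), H2-Ab1 (-3.67 to 0.0040), Cd74 (-4.95 to 0.0750) and H2-Aa (-6.54 to 0.32) also crossed it. So did Cxcr5 (-2.94 to 0.46), Egr2 (-5.31 to 0.29), Mios (-0.0813 to 0.0432) and Umad1 (-0.0888 to 0.26). Among list medians, eIF2 (-0.0577 to 0.11), MHC class II (-4.87 to 0.0750) and ATF4 (-0.0054 to 0.25) crossed 0. Cholesterol synthesis (-0.28 to 0.0764), proliferation (-0.039 to 0.0633), p53 targets (-0.10 to 0.0032) and DNA methylation (-0.0432 to 0.0785) did too. The same held for pan-B (-0.19 to 0.0417), progenitor B (-0.67 to 0.18), mature B (-0.76 to 0.0186) and immediate early genes (-0.58 to 0.024). No paired analysis was possible because the labels give the lines of the 2 classes no shared replicate number. A level under 0.0920 to 0.122 CPM rests on fewer than 3 counts, so low genes such as Chac1 and Slc7a11 are imprecise, and with 1 library a line the variation of a single line was not measured.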

Other observations

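The near absence of Asns in line #649 was set beside other genes absent from a single line, a search made after the values were seen. Genes below 0.1 CPM in 1 line and at 20 CPM or more in each of the other 11 were exactly 2 in #649, Asns and Asrgl1, which encode the enzyme that makes asparagine and one that breaks it down. The lowest level of Asrgl1 in any other line was 22.9 CPM. In #524, an Asns-low line, such genes included Trp53 (0.0711 CPM), which encodes p53, Atad1 (0 CPM), Thbd and Cplx2. Line #309 lacked Cry1, a clock repressor, and line #504 Pja1, a ubiquitin ligase, while the other 8 lines had 0 such genes.

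Tmeff1, a transmembrane protein with follistatin-like domains, split the lines in an all or none way. It was chosen as the 1 gene called between the 4 highest and the 4 lowest lines. The split of those lines by Asns class therefore follows from the choice. How many genes split the lines in this way was not counted. Tmeff1 was at 0 CPM in #309, #115, #136, #517, #505 and #504. It was at 26.2 CPM in #549, 47.2 in #506, 29.2 in #688, 22.1 in #801, 32.7 in #524 and 35.6 in #649. So 5 of 6 Asns-high lines lacked its mRNA and 5 of 6 Asns-low lines had it. The exceptions were #549, which shares its most abundant immunoglobulin segments with #506 and #688, and #504. The lines outside the run that picked the gene were #549, #505, #504 and #506. Of these, only #505 and #506 went with their class.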
